A study of Homo sapiens with 10 samples.

Results

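Genes whose RNA level was about the same in A549 and A549/DDP cells were selected on their input RNA, and the length of transcript called as m6A in each line was compared over them. A549 is a human lung adenocarcinoma line, and A549/DDP is a line derived from it that resists cisplatin, a platinum drug that crosslinks DNA. A member gene had at least 10 TPM (a level scaled for transcript length and library size) in all 4 input libraries. Its mean TPM in A549/DDP, divided by its mean TPM in A549, lay between 0.67 and 1.5. Of 58037 genes in the tables, 7426 reached 10 TPM in all 4 inputs, and 3964 of these were members. Of the others, 1886 had a ratio under the window and 1576 a ratio over it. The members were thus chosen by a measured value, and their RNA is given here only as a description.

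N6-methyladenosine is the most common internal modification of messenger RNA. It is written by the METTL3-METTL14 methyltransferase complex, removed by the demethylases FTO and ALKBH5, and bound by readers of the YTH family, which affect the translation and decay of the marked transcripts. In m6A-seq, RNA fragments are pulled down with an antibody against the modified base, and peaks are called where these fragments pile up relative to the input. A change in the RNA level of a gene alters how much of it can be called, so genes at a stable level allow the called m6A of the lines to be set side by side with less change in the input beneath it.

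Each line had 2 input libraries and 2 m6A-seq libraries, and no drug given at harvest is named in the labels. The inputs held 35286514 and 34570074 expected counts in A549 replicates 1 and 2, and 29225501 and 33971561 in A549/DDP replicates 1 and 2. The authors called peaks in each m6A-seq library by itself. The lists held 26320 and 14576 peaks in A549, and 27244 and 10661 peaks in A549/DDP. Summed over their exon blocks, these peaks came to 8295219 and 4510708 bases in A549 and to 7444392 and 2558623 bases in A549/DDP. The shortest list was therefore that of A549/DDP replicate 2. The lists carry no read depth, so the depth of the m6A-seq libraries is unknown, and the part of list length in the differences between the lines was not tested. Nothing in the labels says that replicates came from separate cultures, so p-values given here measure only the spread between these samples.

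The epithelial keratins KRT8 and KRT18 were abundant in all 4 inputs, with at least 2028 TPM for KRT8 and 1591 TPM for KRT18. The other epithelial markers did not go 1 way: EPCAM had at most 6.95 TPM, KRT19 had 33.3 and 64.0 TPM in A549 and 9.24 and 0 in A549/DDP, and CDH1 had 28.9 and 40.4 TPM in A549 and 226 and 114 in A549/DDP. The 5 epithelial markers summed to 3684 and 7920 TPM in A549 and to 14741 and 14735 TPM in A549/DDP, nearly all of it KRT8 and KRT18. Of the alveolar type II markers, SFTPC and SFTPA1 were listed at 0 in all 4 inputs, and ABCA3, a lipid transporter, made up nearly all of the sum, which ran from 11.6 to 34.9 TPM. The fibroblast markers summed to at most 20.3 TPM and the endothelial markers to at most 0.400 TPM. Immune markers summed to between 128 and 156 TPM, which was CD68, a lysosomal protein also made by epithelial lines, while CD3E was listed at 0. Of a locus deleted in A549, CDKN2A had at most 1.03 TPM and CDKN2B at most 1.68 TPM in any input. MTAP, a neighbour of these genes, was not absent, at 10.1 and 4.54 TPM in A549 and 4.27 and 3.08 TPM in A549/DDP, and the reason was not tested.

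The median ratio of mean TPM over the members was 1.01, and the median of their mean TPM was 47.6. In edgeR's quasi-likelihood test on the input counts, 91 of the 3964 members had an adjusted p under 0.05, where 14.9% of the 16406 genes tested did. This contrast is the one that chose the members, and nothing is read from that count. At the lower end of the window, GNB5 (ratio 0.6690) and PBRM1 (ratio 0.6698) lay just outside, and PPP2R2D (ratio 0.6702) and SBF2 (ratio 0.6706) just inside. At the upper end, SSNA1 (ratio 1.4988) and PEX10 (ratio 1.4999) lay just inside, and RALGDS (ratio 1.5002) and DCAF10 (ratio 1.5004) just outside. SSNA1, a microtubule-associated protein of the centrosome, had 1085 and 988 peak bases in the A549 lists and 1035 and 889 in the A549/DDP lists. PBRM1, a subunit of a chromatin remodelling complex, had no peak in any list.

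Most members carried called m6A. A peak was held by 3116 members (78.6%) in at least 1 list, and 848 had none in any list. Genes with a peak numbered 9899 in all, of which 3998 did not reach 10 TPM in all inputs. A called peak was thus not particular to the members. Per list, 2284 and 1804 members had a peak in A549, and 2601 and 1461 in A549/DDP. The members' peaks summed to 2846742 and 1684930 bases in the A549 lists, 34.3% and 37.4% of all called bases there. In the A549/DDP lists they summed to 3093143 and 1036566 bases, 41.5% and 40.5% of all called bases. Their share of the called bases was thus higher in each A549/DDP list than in either A549 list.

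A peak was called in all 4 lists at 971 members, or 24.5%, and these were 31.2% of members with a peak, where 23.8% of all genes with a peak had this. The next most common combination was a peak in every list but that of A549/DDP replicate 2, with 489 members, followed by a peak in A549/DDP replicate 1 alone, with 422. A peak in both A549/DDP lists and neither A549 list was seen at 133 members, 4.27% of those with a peak, where 3.48% of all genes with a peak had this. The reverse, a peak in both A549 lists and neither A549/DDP list, was seen at 105, or 3.37%, where 8.13% of all genes with a peak had it. The largest groups thus did not follow the lines.

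**Figure D1:**
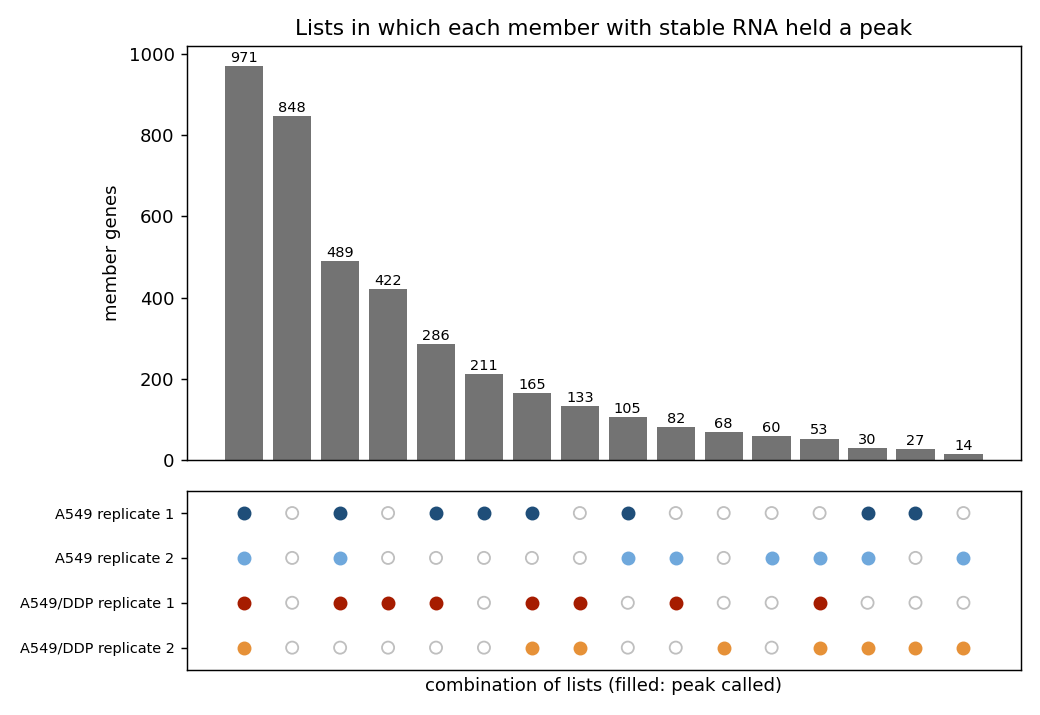
Bars give the number of member genes for each combination of the 4 m6A lists in which a peak was called, and filled circles mark the lists with a peak. The tallest bars are a peak in all 4 lists (971 members) and no peak in any (848), while 133 members had peaks in both A549/DDP lists alone and 105 in both A549 lists alone.

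For each member the summed peak bases were compared between the lines by whether the lists overlapped. In 308 members both A549/DDP lists lay above both A549 lists, or 9.88% of the members with a peak, where 7.76% of all 9899 genes with a peak did. In 417 members both A549/DDP lists lay below both A549 lists, or 13.4% of the members with a peak, where 17.8% of all genes with a peak did. Counted by number of peaks in place of bases, 314 members were higher in both A549/DDP lists and 248 were lower, against 7.86% and 12% of all genes with a peak. By both measures together, 208 members were higher and 188 were lower. The balance between the directions turned when each list was scaled to the same total length: 484 members were then higher and 346 lower, against 12.3% and 16.3% of all genes with a peak. Of the 308 members, 259 stayed higher under that scaling, and of the 417, 234 stayed lower. Single lists moved the counts as well. With a list left out fewer lists have to separate, so a count can only stay or rise, here and in the gene lists below. Without A549/DDP replicate 2, 1563 members were higher and 468 lower, so the balance turned, and without A549 replicate 1, 607 were higher and 543 lower, which also turned it. Without A549 replicate 2, 372 were higher and 1273 lower, and without A549/DDP replicate 1, 430 and 1201.

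The same counts were taken over the genes outside the rule. Genes with a peak that did not reach 10 TPM in all inputs numbered 3998, and 4.03% of them were higher and 22.8% lower in A549/DDP. Among genes with at least 10 TPM whose ratio lay under 0.67, and whose RNA was thus lower in A549/DDP, 195 of 1886 (10.3%) were higher and 272 (14.4%) lower in summed peak bases. Among those with a ratio over 1.5, 104 of 1576 (6.60%) were higher and 163 (10.3%) lower. With members without a peak counted in, the shares of the stable genes were 7.77% and 10.5%. Both shares were thus larger among genes whose RNA was lower in A549/DDP than among those whose RNA was higher, and the balance in each was toward lower, but turned with scaled lists, to 258 higher and 234 lower under 0.67 and to 204 and 129 over 1.5. Among the genes that did not reach 10 TPM it did not turn, with 272 higher and 901 lower.

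Many of the separations were small. Between the nearest lists of the lines, the median gap on the log2(bases + 100) scale was 0.99 for the members higher in A549/DDP and 0.39 for those lower. A gap of at least 1 was seen in 151 of the 308 and in 126 of the 417, while 26 and 59 members had a gap under 0.1. Limma with a trend, fitted over all 9899 genes with a peak, called no gene at an adjusted p under 0.05 (0% of genes), so 0 of the members passed. At an unadjusted p under 0.05 there were 984 genes, of which 224 were members, and the lowest adjusted p was 0.255. An edgeR test on the number of peaks also called 0 genes, with 524 at an unadjusted p under 0.05. The median difference over all members was 0.00 on that scale, and it was -0.10 over members with a peak and -0.32 over all genes with a peak. With the lists scaled to the same total, these last medians were 0.21 and -0.04. What follows therefore describes called peaks and not differences that passed a test.

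Left out in turn, single lists moved the limma count far. Without A549 replicate 2, 336 members passed an adjusted p under 0.05 in limma, 18 higher and 318 lower, where 2200 of all 9899 genes did, 44 higher and 2156 lower. Without A549/DDP replicate 2, 582 members passed, 556 higher and 26 lower, where 1644 of all genes did, 1490 higher and 154 lower. In these fits the line with 1 list is assumed to vary like the other. The direction of the calls thus turned with which list was left out.

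The 8 members with the largest separation toward A549/DDP, among those higher by both measures, were CAST, NCL, SEC23IP, VMP1, SRP72, SRRM1, RDX and CAPRIN1, and all were listed at 0 bases in both A549 lists. CAST, which encodes calpastatin, the inhibitor of calpain proteases, had 2460 and 1608 peak bases in A549/DDP, in 12 and 10 peaks. Its RNA stood at 232 and 344 TPM in A549 and at 280 and 328 TPM in A549/DDP. The CAST peaks lay over chr5:96662293-96774644 (plus strand, hg38), toward the 3′ end of its long RefSeq span, and 12 of the 22 crossed more than 1 exon. NCL, which encodes the nucleolar protein nucleolin, had 1399 and 1450 peak bases in A549/DDP, in 4 and 5 peaks over chr2:231454777-231464505 on the minus strand. NCL was among the most abundant members, at 1793 and 1836 TPM in A549 and 1642 and 1701 TPM in A549/DDP.

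The other members of this set have unlike functions. SEC23IP, a partner of the COPII coat at endoplasmic reticulum exit sites, had 1848 and 1350 bases in A549/DDP, and its TPM ratio of 1.49 was close to the edge of the window. VMP1, a membrane protein needed for autophagosome formation, had 2088 and 1245 bases. SRP72, a subunit of the signal recognition particle, had 1255 and 1201 bases. SRRM1, an SR-related splicing coactivator, had 2151 and 1200 bases in 9 and 6 peaks, at a ratio of 0.676, so its RNA was lower in A549/DDP. RDX, which encodes the actin-membrane linker radixin, had 1754 and 1155 bases. CAPRIN1, an RNA-binding protein of stress granules, had 1206 and 1104 bases at nearly equal RNA (ratio 0.997). In these 8 genes each A549/DDP replicate held over 1000 peak bases.

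Members with the largest separation the other way were ANKLE2, PLEKHM1, LATS1, MAPK8IP3, SSH2, NAV2 and HPS4, all listed at 0 in both A549/DDP lists. ANKLE2, which acts in nuclear envelope reassembly after mitosis, had 2555 and 2853 peak bases in A549, in 13 and 11 peaks. Its RNA was 167 and 122 TPM in A549 and 124 and 78.5 TPM in A549/DDP. PLEKHM1, an adaptor in the fusion of autophagosomes with lysosomes, had 2251 and 2502 bases. Its RNA varied more between replicates than between the lines, at 35.4 and 15.4 TPM in A549 and 40.5 and 11 TPM in A549/DDP. LATS1, the Hippo pathway kinase that phosphorylates YAP, had 2202 and 1855 bases in 5 and 7 peaks over chr6:149661750-149702182 on the minus strand. LATS1 RNA was 17.4 and 18.2 TPM in A549 and 11.1 and 17.7 TPM in A549/DDP.

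MAPK8IP3, a scaffold of JNK signalling and axonal transport, had 1852 and 1954 bases in A549. SSH2, a phosphatase that activates the actin-severing protein cofilin, had 2749 and 1800 bases. NAV2, a cytoskeleton-associated protein of neurite growth, had 2856 and 1656 bases. HPS4, a subunit of a complex for the making of lysosome-related organelles, had 1655 and 1652 bases. Each A549 replicate thus held at least 1652 peak bases at each of these 7 genes.

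Stricter lists kept only some of these members. With peaks at a p-value of at most 1e-05 alone, 5 of the 8 higher members still separated the lines, and with lists of equal size 6 did. Of the lower members named, NAV2 and HPS4 still did at this p-value, and ANKLE2 and NAV2 with lists of equal size. At this p-value NCL had the same 1399 and 1450 bases, whereas SRP72 and RDX had none in any list. Of the lower set, PLEKHM1, LATS1 and MAPK8IP3 had none in any list at this p-value, and ANKLE2 and SSH2 kept bases in A549 replicate 1 alone. Over all peaks of the members higher in A549/DDP, the median p-value was 8.30e-06 and 8.70e-06 in the A549/DDP lists. Over all peaks of the members lower in A549/DDP, it was 8.50e-05 and 1.30e-04 in the A549 lists. The lists themselves differed in this, since over the peaks of all members the median was 3.90e-06 and 3.20e-05 in A549/DDP and 2.90e-05 and 1.70e-04 in A549. Set beside the peaks of all members, the higher set was thus weaker in A549/DDP replicate 1 and stronger in replicate 2, and the lower set was weaker in A549 replicate 1 and stronger in replicate 2. In limma each of these 15 genes had an adjusted p of 0.255.

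**Figure D2:**
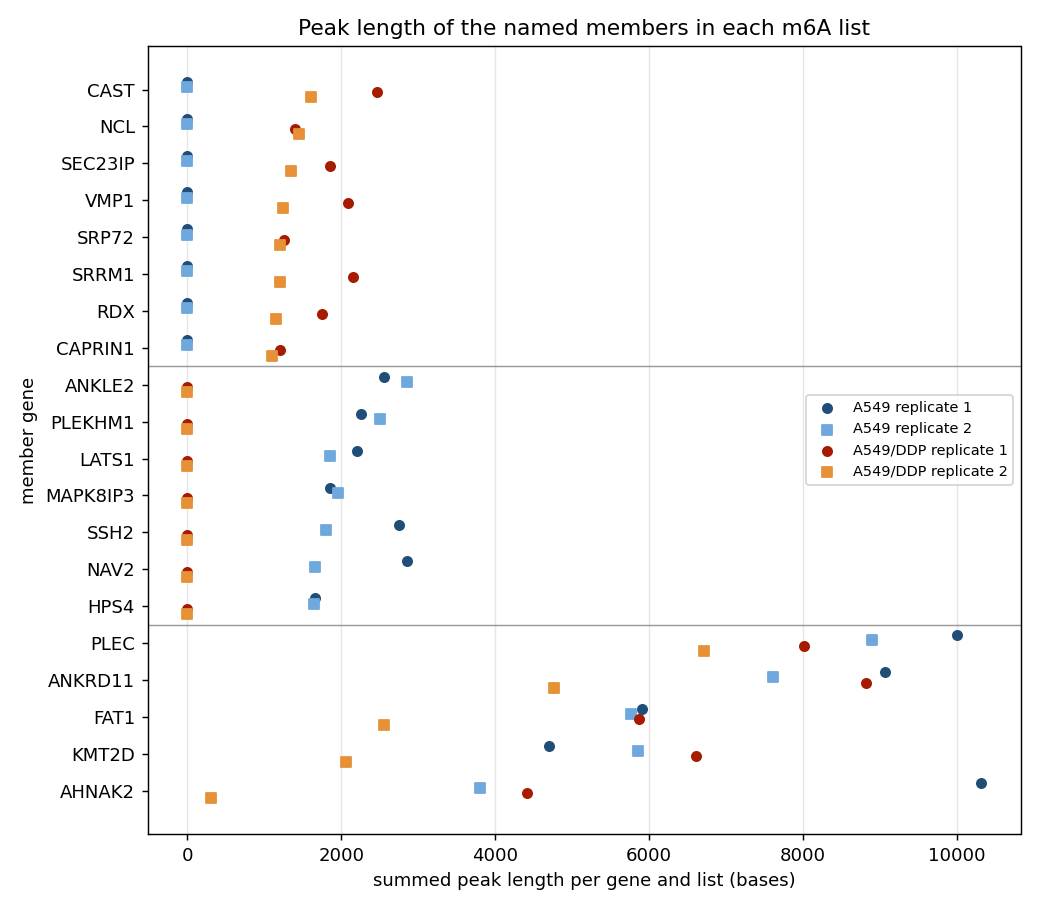
Each row is a member gene and each point its summed peak length in bases in 1 m6A list, with A549 in blue and A549/DDP in red and orange. The upper block holds the 8 largest separations toward A549/DDP, the middle block 7 of the largest toward A549, and the lower block the 5 members with the most peak bases, where all 5 genes have their shortest sum in A549/DDP replicate 2.

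The members with the most called m6A were long genes marked in all 4 lists. PLEC, which encodes the cytolinker plectin, had 10007 and 8904 peak bases in A549 and 8015 and 6713 in A549/DDP, with a log2 difference of -0.36 (standard error 0.14, adjusted p = 0.591 in limma) that turned to 0.12 with scaled lists and was -3.33 with peaks at a p-value of at most 1e-05. By number PLEC had 12 and 9 peaks in A549 and 18 and 16 in A549/DDP, so the measures went opposite ways. ANKRD11, a chromatin regulator, had 9064 and 7619 bases in A549 and 8817 and 4765 in A549/DDP. FAT1, an atypical cadherin, had 5905 and 5765 bases in A549 and 5868 and 2559 in A549/DDP. In ANKRD11 and FAT1, A549/DDP replicate 1 lay within or close to the A549 values, and replicate 2 lay below them. KMT2D, a histone H3 lysine methyltransferase, had 4705 and 5855 bases in A549 and 6606 and 2060 in A549/DDP. AHNAK2, a giant scaffold protein, had 10315 and 3798 bases in A549 and 4412 and 301 in A549/DDP. The AHNAK2 replicates of each line lay far apart.

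YTHDF1, the m6A reader at the centre of the study, was itself a member. It stood at 48.4 and 43.6 TPM in A549 and at 42.7 and 46.0 TPM in A549/DDP. Its peaks came to 1529 and 1431 bases in A549 and 1824 and 1088 in A549/DDP, over chr20:63195528-63203788 on the minus strand. The lists of the lines overlapped, with a log2 difference of -0.06 (standard error 0.40, adjusted p = 0.986 in limma) that turned to 0.39 with scaled lists. This difference was 1.79 with peaks at a p-value of at most 1e-05. It was 0.28 without A549/DDP replicate 2 and -0.41 without A549/DDP replicate 1. CDK4, the cyclin D kinase of G1, had 298 and 0 bases in A549 and 844 and 0 in A549/DDP. CCND1, which encodes its partner cyclin D1, had a peak of 200 bases in A549/DDP replicate 2 alone. CDK2 (ratio 1.77), KEAP1 (ratio 1.76), NFE2L2 (ratio 0.467) and AKR1C1 (ratio 10.4) fell outside the window of RNA ratios and were not members.

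The 2 sets of members differed in RNA level and in length. Members higher in A549/DDP had a median of 103 TPM, members lower in A549/DDP one of 39.4 TPM, and members without a peak one of 35.2 TPM. Ordered by mean TPM, the lowest of 5 equal groups of members held 18 higher and 120 lower in A549/DDP, and the highest group held 135 higher and 58 lower. With the lists scaled to the same total, these numbers were 30 and 104, and 151 and 34, so the order was the same. The median transcript length was 1359 bases for the higher set, 2169 for the lower set and 1746 for all members. The shortest of 5 groups by length held 97 higher and 53 lower, and the longest held 22 higher and 121 lower, with 66 higher and 112 lower in the longest under the scaling. In the middle group by TPM, 36 were higher and 73 lower, and the scaling turned this to 102 and 72, as it turned 50 and 87 in the middle group by length to 88 and 74. In the next longer group it turned 52 and 102 to 88 and 78, so with scaled lists only the longest group had more lower than higher members. Members with more peak bases in A549/DDP were thus more abundant and shorter by the median than those with fewer. RNA level and length were not part of the comparison of peaks, but a floor of 10 TPM was part of the rule.

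**Figure D3:**
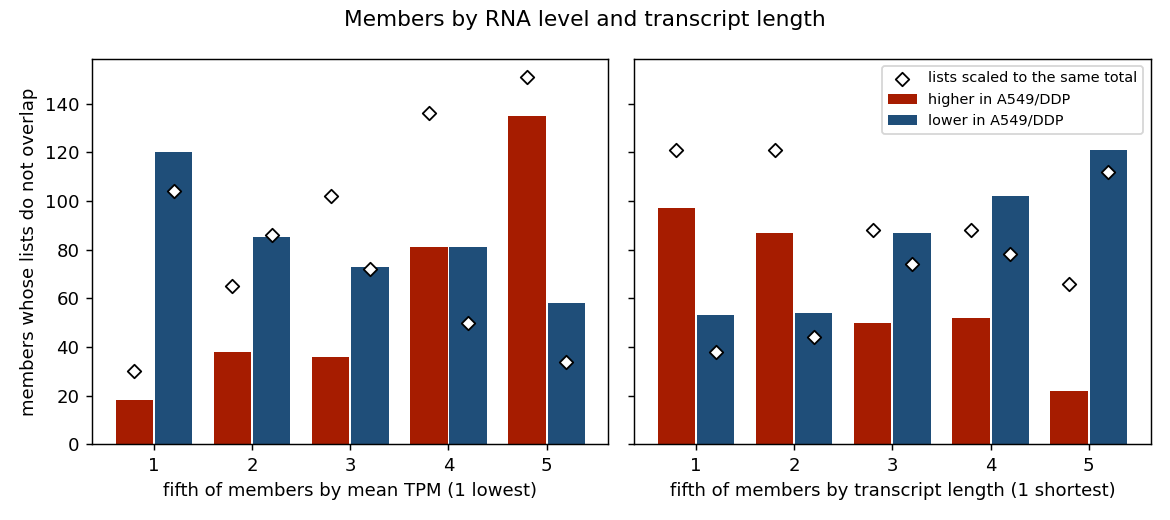
Bars give the number of members whose summed peak bases in both A549/DDP lists lay above (red) or below (blue) both A549 lists, in 5 equal groups by mean TPM (left) and by transcript length (right). Diamonds give the same counts with the lists scaled to the same total; from the lowest to the highest TPM the higher counts go from 18 to 135 and the lower counts from 120 to 58, and the balance in the middle group of TPM turned with the scaling.

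Cover of the transcript follows from the choice of the sets, which were made by summed bases, and is given as a description. In the members higher in A549/DDP, peaks covered a median of 63.3% and 43.4% of the transcript length in the A549/DDP lists. In the A549 lists, 143 and 134 of these 308 members had a peak, covering a median of 34.1% and 29.9%. In the members lower in A549/DDP, the median cover was 65.1% and 50.2% in the A549 lists. There, 301 and 213 of the 417 still had a peak in the A549/DDP lists, covering 44.0% and 33.1%. In both A549 lists 133 of the higher members were listed at 0, and in both A549/DDP lists 105 of the lower members. The remaining separated members had a peak in some list of each line, though not always in both lists. Transcript length is the value in the tables, and called bases can exceed it.

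The share of peaks over more than 1 exon is given without a test. For the higher set in A549/DDP, 44.2% and 42.6% of their peaks lay in more than 1 exon, against 38.9% and 31.5% of the peaks of all members and 36.6% and 29.2% of all peaks in those lists. In the A549 lists the same genes had 38.1% and 35.8%, so their share was above that of all members in every list, by little in A549 replicate 1. Of the peaks of the lower set, 33.2% and 24.7% lay in more than 1 exon in A549, where the peaks of all members had 37.1% and 27.4% and all peaks 32.3% and 24.1%. Within 1000 genomic bases of the 3′ end of the RefSeq gene lay 27.9% and 29.5% of the higher set's peaks in A549/DDP, against 22.5% and 27.1% of all peaks there, and 33.7% and 27.8% of their peaks in A549. For the lower set in A549 these shares were 22.4% and 22.2%, against 22.4% and 23.9% of all peaks. At least 98.2% of the peaks of these sets were matched to a RefSeq gene by symbol. Placement in untranslated or coding sequence was not analysed here.

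Of the 16 gene lists, cytosolic ribosomal proteins and oxidative phosphorylation subunits had the most members higher in A549/DDP. Of 70 ribosomal protein members, 17 were higher and 4 lower, and 56 had a peak in some list. The 17 were 30.4% of those with a peak, where 9.88% of all members and 7.76% of all genes with a peak were higher. RPL15, of the large subunit, was listed at 0 in both A549 lists and had 951 and 1000 peak bases in A549/DDP, close to its whole transcript length of 999 bases. RPL6, also of the large subunit, was at 0 in A549 and had 753 and 953 bases in A549/DDP. RPS3A, of the small subunit, was at 0 in A549 and had 502 and 351 bases. RPL24 went the other way, with 451 and 598 bases in A549 and 0 in both A549/DDP lists. At RPL39L, also lower, the nearest lists were 483 bases in A549 and 482 in A549/DDP. With the lists scaled to the same total 13 ribosomal members were higher and 1 lower, and at a p-value of at most 1e-05 the numbers were 5 and 4. They were 27 and 12 without A549/DDP replicate 2, without A549/DDP replicate 1, 28 and 6, and without A549 replicate 1, 19 and 12. Ribosomal protein genes have many near-identical pseudogenes, which makes both their RNA and their peaks uncertain.

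Of 47 oxidative phosphorylation members, encoded in the nucleus, 10 were higher in A549/DDP, or 27.0% of those with a peak, and none lower. Of all members with a peak, 9.88% were higher and 13.4% lower, and of all genes with a peak 7.76% and 17.8%. COX7A2L, which takes part in respiratory supercomplexes, was at 0 in both A549 lists and had 647 and 498 peak bases in A549/DDP. ATP5F1C, the gamma subunit of ATP synthase, was at 0 in A549 and had 697 and 300 bases. ATP5PB, of the peripheral stalk of ATP synthase, was at 0 in A549 and had 701 and 250 bases. NDUFB2, of complex I, was at 0 in A549 and had 603 bases in A549/DDP replicate 1 and fewer in replicate 2. The numbers were 9 and 0 with scaled lists, 5 and 1 at a p-value of at most 1e-05, and 7 and 1 with lists of equal size. They were 29 and 1 without A549/DDP replicate 2, and without A549 replicate 2, 16 and 4. Of the 10, NDUFA12 and NDUFB4 separated the lines by 1 base. The median mean TPM was 1116 for the ribosomal members and 121 for the oxidative phosphorylation members, and the median transcript lengths were 631 and 726 bases, so both lists share the high RNA and short length of the higher set. The part of RNA level and length in these counts was not tested. The proteasome, with 18 members, had 2 higher, PSMA1 and PSMB3, and none lower, and 12 and none without A549/DDP replicate 2.

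Numbered zinc finger genes and a list of ubiquitin ligases and their substrate receptors had the most members lower in A549/DDP. Of 51 zinc finger members, which mostly encode DNA-binding repressors, 1 was higher and 14 were lower, the latter 29.2% of those with a peak. Of all members with a peak 13.4% were lower, and of all genes with a peak 17.8%. ZNF160 had 1249 and 1403 peak bases in A549 and 0 in both A549/DDP lists. ZNF875 had 1395 and 1094 bases in A549 and 0 in A549/DDP. ZNF598, an E3 ligase that detects collided ribosomes, had 2335 and 2035 bases in A549 and 1389 and 0 in A549/DDP. At ZNF142, also lower, the nearest lists were 1704 bases in A549 and 1703 in A549/DDP. With scaled lists 1 was higher and 13 lower, and at a p-value of at most 1e-05 the numbers were 2 and 3. The median difference over these members was -0.81 on the log2 scale, the lowest of the 16 lists, and their median mean TPM of 26.8 was also the lowest.

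Of 78 ubiquitin ligase members, 1 was higher and 15 were lower, the latter 23.4% of those with a peak. Of all members with a peak 13.4% were lower, and of all genes with a peak 17.8%. RNF169, which binds ubiquitylated chromatin at DNA breaks, had 1348 and 1349 peak bases in A549 and 0 in A549/DDP. RNF8, a ligase that starts ubiquitin signalling at DNA breaks, had 1002 and 751 bases in A549 and 0 in A549/DDP. ASB8, a receptor of cullin ligases, had 901 bases in A549 replicate 1, fewer in replicate 2, and 0 in A549/DDP. RNF26, a membrane ligase of the endoplasmic reticulum, had 2440 and 1745 bases in A549 and 251 and 0 in A549/DDP. The numbers were 4 and 10 with scaled lists. Without A549/DDP replicate 2, the shortest list, they turned, to 27 higher and 15 lower. They did not turn with lists of equal size (1 and 5) or at a p-value of at most 1e-05 (none and 2). They were 1 and 37 without A549/DDP replicate 1. Among the lower members, the nearest lists of the lines were 852 and 851 bases at FBXO28, and 1251 and 1250 at FBXW4. Zinc finger members had 12 higher and 15 lower without replicate 2 of A549/DDP, and 2 and 33 without A549 replicate 2.

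**Figure D4:**
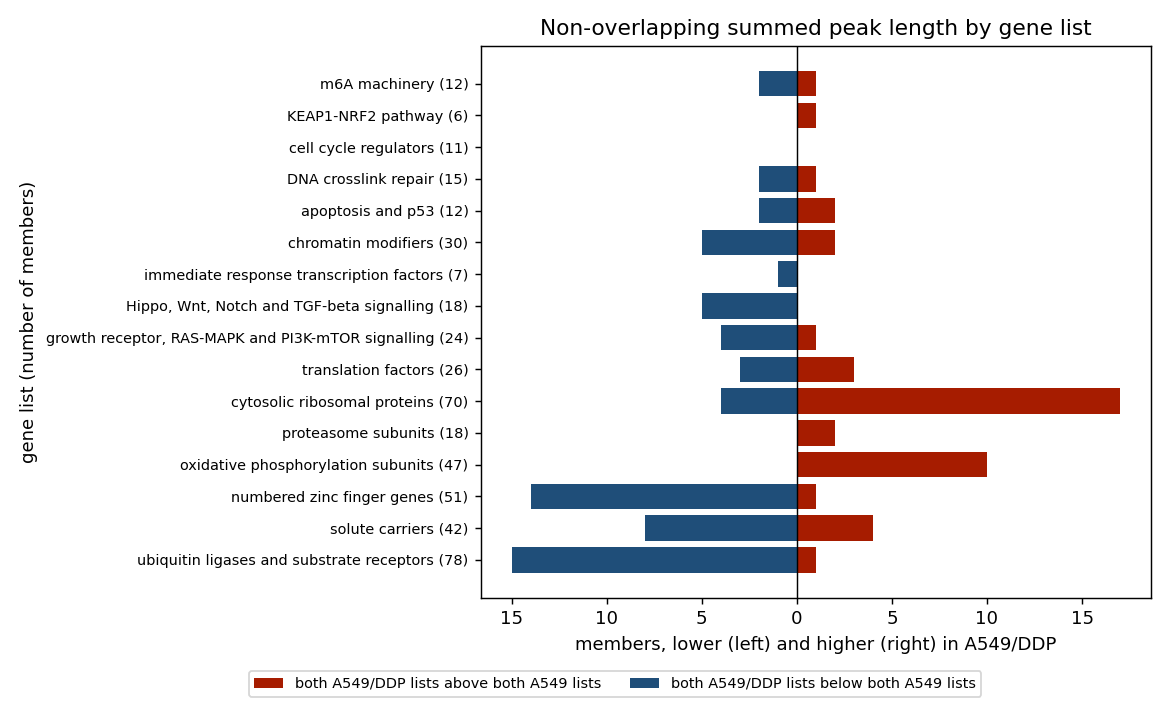
Bars give, for each of 16 gene lists, the number of members whose summed peak bases in both A549/DDP lists lay above (red, right) or below (blue, left) both A549 lists, with the number of members in brackets. Ribosomal proteins (17 higher, 4 lower) and oxidative phosphorylation (10 and 0) lie to the right, and zinc finger genes (1 and 14) and ubiquitin ligases and receptors (1 and 15) to the left; the last of these turned without A549/DDP replicate 2, and m6A machinery and DNA crosslink repair turned with lists scaled to the same total.

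Of 18 members of Hippo, Wnt, Notch and TGF-beta signalling none was higher and 5 were lower, the latter 31.2% of those with a peak. Of all members with a peak 13.4% were lower, and of all genes with a peak 17.8%. STK4, the kinase that acts on LATS1, had 1150 and 699 peak bases in A549 and 0 in A549/DDP. LATS1 itself, named above, was also at 0 in both A549/DDP lists. ACVR1B, an activin receptor, had 1050 and 300 bases in A549 and 0 in A549/DDP. LRP6, a Wnt coreceptor, had 1252 and 1253 bases in A549 and 804 and 802 in A549/DDP. AXIN1, the scaffold of the beta-catenin destruction complex, was the remaining lower member. With scaled lists none was higher and 3 were lower, and at a p-value of at most 1e-05 no member separated the lines either way. This became 4 higher and 5 lower without A549/DDP replicate 2, without A549 replicate 2 none and 11, and without A549/DDP replicate 1, 1 and 9.

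Of 24 members of growth receptor, RAS-MAPK and PI3K-mTOR signalling, 1 was higher and 4 were lower, and with scaled lists 2 and 2. These were 5.26% and 21.1% of those with a peak. The shares were 9.88% and 13.4% over all members with a peak, and 7.76% and 17.8% over all genes with a peak. PTPN11, which encodes the phosphatase SHP2, was at 0 in both A549 lists and had 850 and 150 bases in A549/DDP, at a ratio of 0.672 near the edge of the window. SOS2, a RAS exchange factor, had 851 and 750 bases in A549 and 0 in A549/DDP. RPTOR, the substrate-binding subunit of mTORC1, had 3002 and 1601 bases in A549 and 1102 and 603 in A549/DDP. EIF4EBP1, the translation repressor that mTORC1 phosphorylates, had 780 and 732 bases in A549 and 490 and 440 in A549/DDP. Number of peaks gave another picture for this list, with 4 members higher and 1 lower. Without A549/DDP replicate 2 the bases turned as well, to 10 higher and 5 lower, while without A549/DDP replicate 1 they were 2 and 8.

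Among 30 chromatin modifiers, 2 were higher and 5 lower, and by number of peaks 4 were higher and none lower. The 5 were 17.9% of those with a peak, where 13.4% of all members and 17.8% of all genes with a peak were lower. SMARCB1, a core subunit of SWI/SNF remodellers, was at 0 in both A549 lists and had at most 301 bases in A549/DDP. HDAC1, a histone deacetylase, had 398 and 0 bases in A549 and 1044 and 697 in A549/DDP. NSD1, a histone H3 lysine 36 methyltransferase, had 5051 and 3306 bases in A549 and 2504 and 0 in A549/DDP. KMT2C, a histone H3 lysine 4 methyltransferase, had 4852 and 3952 bases in A549 and 3305 and 0 in A549/DDP. In both genes replicate 2 of A549/DDP was listed at 0, and without that replicate the chromatin list turned, to 14 higher and 5 lower, while without A549/DDP replicate 1 it was 2 and 16. Among 42 solute carriers 4 were higher, SLC20A1 and SLC7A11 with the widest gap, and 8 lower, led by SLC12A4, or 11.1% and 22.2% of those with a peak. The solute carriers turned to 15 and 9 without A549/DDP replicate 2 and were 4 and 19 without A549 replicate 2.

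Of 12 members of the m6A machinery, 1 was higher and 2 were lower, which turned to 3 higher and 2 lower with scaled lists. These were 11.1% and 22.2% of those with a peak. The shares were 9.88% and 13.4% over all members with a peak, and 7.76% and 17.8% over all genes with a peak. A peak was called in all 4 lists at 5 of them. HNRNPA2B1, an RNA-binding protein linked to m6A in the nucleus, was at 0 in both A549 lists and had 1403 and 452 bases in A549/DDP, at a mean of 2168 TPM. METTL14, the partner of METTL3 in the methyltransferase, had 1249 and 949 bases in A549 and 351 and 0 in A549/DDP. RBM15, which brings the complex to its sites, had 2585 and 2488 bases in A549 and 1941 and 949 in A549/DDP. By number of peaks RBM15 did not go the same way, with 2 and 3 peaks in A549 and 5 and 5 in A549/DDP. Without A549/DDP replicate 2, 4 of the 12 were higher and 2 lower, and without A549/DDP replicate 1, 1 and 6. The balance of these small counts thus moved with single lists.

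Of 15 members of DNA crosslink repair, 1 was higher and 2 were lower, which turned to 3 and 2 with scaled lists and to 7 and 2 without A549/DDP replicate 2, while without A549 replicate 2 it was 1 and 6. With the lists as deposited these were 7.14% and 14.3% of those with a peak. They lay near the 9.88% and 13.4% of all members and the 7.76% and 17.8% of all genes with a peak. ERCC2, the XPD helicase of nucleotide excision repair, had 1456 and 753 bases in A549 and 0 in A549/DDP. PALB2, which bridges BRCA1 and BRCA2, had 1851 and 1503 bases in A549 and 1401 and 452 in A549/DDP. Of 12 members of apoptosis and p53, 2 were higher and 2 lower. Each was 18.2% of those with a peak, against the same 9.88% and 13.4% of all members and 7.76% and 17.8% of all genes. The counts were 7 and 2 without A549/DDP replicate 2, 2 and 4 without A549 replicate 2, and none at a p-value of at most 1e-05. DIABLO, the mitochondrial antagonist of inhibitors of apoptosis, was at 0 in both A549 lists and had 848 and 897 bases in A549/DDP.

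CYCS, which encodes cytochrome c, had 0 and 696 bases in A549 and 1090 and 943 in A549/DDP. BAX, a pore-forming protein of mitochondria, had 1297 and 1297 bases in A549 and 1248 and 1148 in A549/DDP, a separation with a gap of only 0.05. BCL2L2, a survival protein of the same family, had 1150 and 949 bases in A549 and 703 and 350 in A549/DDP. SLC7A11, the cystine transporter, was the only member of 6 in the KEAP1-NRF2 list whose lists did not overlap in bases, while by number of peaks there were 2. It had 452 and 552 bases in A549 and 1505 and 1105 in A549/DDP. As 1 of 6 with a peak it made 16.7%, where 9.88% of all members and 7.76% of all genes with a peak were higher. At a p-value of at most 1e-05, and with lists of equal size, no member of this list separated the lines. With a list left out, 2 or 3 were higher and at most 1 lower, the most being 3 and 1 without A549/DDP replicate 2. Counts over all members rose as well, to 1563 higher and 468 lower without that list. None of 11 cell cycle members separated the lines with the lists as deposited, and 1 was lower with scaled lists. Of these 11, 3 were higher and 1 lower without A549/DDP replicate 2, and without A549 replicate 2 none and 2.

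Of 26 translation factors, 3 were higher and 3 lower. Each was 16.7% of those with a peak, against 9.88% and 13.4% of all members and 7.76% and 17.8% of all genes. The counts were 10 and 3 without A549/DDP replicate 2, and 4 and 7 without A549 replicate 2. They were 3 and none at a p-value of at most 1e-05, and 2 and none with lists of equal size. EIF4A2, an RNA helicase of initiation, was at 0 in both A549 lists and had 1404 and 451 bases in A549/DDP. EIF3B, a core subunit of initiation factor 3, had 1254 and 702 bases in A549 and 0 in A549/DDP. EEF2, the elongation factor of translocation, had 398 and 597 bases in A549 and 0 in A549/DDP at a mean of 2437 TPM. EEF1B2, an exchange factor of elongation, had 346 and 345 bases in A549 and 99 and 0 in A549/DDP. Of 7 immediate response transcription factors, SOX4 was lower, with 2832 and 2832 bases in A549 and 2435 and 1838 in A549/DDP. No member of that list was lower with scaled lists, at a p-value of at most 1e-05 or with lists of equal size, and without A549/DDP replicate 2, 4 were higher and 2 lower.

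Peaks were then set against transcription starts, since the antibody also binds the modified adenosine m6Am, which can be the first transcribed base. A RefSeq start was matched by symbol for 3252 members. A peak reaching into the first 50 transcribed bases, by any number of bases, was called at 11.4% and 5.07% of them in A549, and at 9.78% and 3.72% in A549/DDP. Of 270 matched members higher in A549/DDP, 26.3% and 15.6% had such a start peak in the A549/DDP lists, and 12.2% and 8.52% in the A549 lists. Of 333 matched members lower in A549/DDP, 3.60% and 2.10% had one in the A549/DDP lists, and 17.7% and 9.61% in the A549 lists. Since a start peak adds to the summed bases, these shares are not independent of the choice of the sets. In both A549/DDP lists and neither A549 list a start peak was called at 20 members, 0.777% of matched members with a peak, where 0.548% of matched genes with a peak had this. In both A549 lists and neither A549/DDP list one was called at 29 members, or 1.13%, where 1.27% of matched genes with a peak had it.

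**Figure D5:**
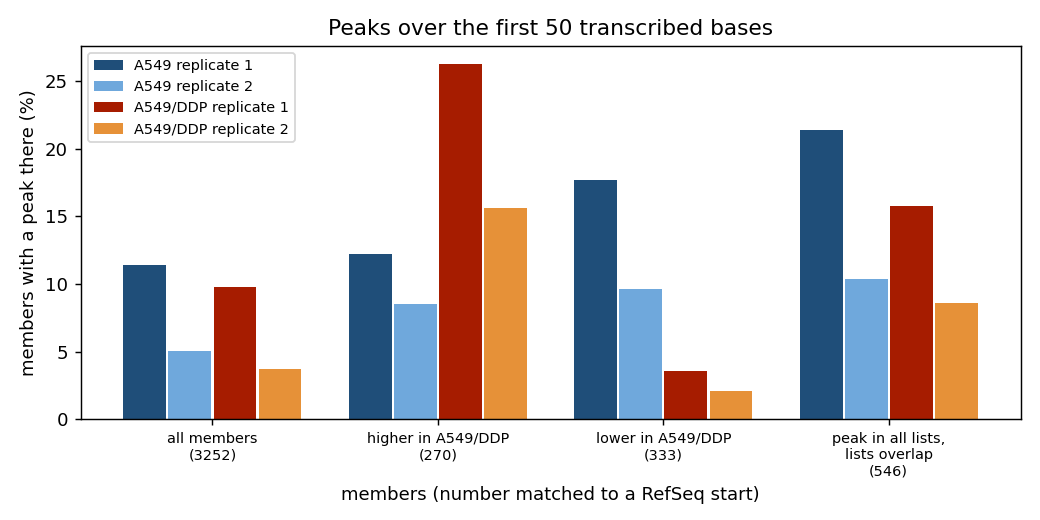
Bars give the percentage of members with a peak over the first 50 transcribed bases in each m6A list, for all matched members (3252), those higher (270) or lower (333) in A549/DDP by summed peak bases, and others with a peak in all 4 lists (546). In the higher set the A549/DDP bars reach 26.3% and 15.6%, and in the lower set they reach 3.60% and 2.10%.

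Of 39 matched oxidative phosphorylation members, 4 had a start peak in both A549/DDP lists alone and 1, NDUFB4, in both A549 lists alone. Their start sequences are printed to show the first base, at which m6Am would lie, each from 5 bases before the RefSeq start (GRCh38.p14), with the first transcribed base in capitals.
NDUFB2 (chr7:140696703-140696732, plus strand): ggggcGaggcggctggggaccgcggggcgg
COX8A (chr11:63974615-63974644, plus strand): cagccAttttggcttcctgaccttgggcta
ATP5PB (chr1:111449459-111449488, plus strand): gcggcCatcttggtcctgccctgacagatt
NDUFA12 (chr12:95003673-95003702, minus strand): gaggcGgggccagcgaggcaagatggagtt
NDUFB4 (chr3:120596331-120596360, plus strand): caggcGcaattgtgccctggttcgccaaga
Only the COX8A start had A as its first base, and in none of the 5 did a called peak include the first base. The COX8A peaks began at base 63974653 in both A549/DDP lists and at 63974699 in both A549 lists. The NDUFB4 peaks began at base 120596359 in both A549 lists and at 120596408 in both A549/DDP lists. At COX8A and NDUFB4 alone of the 5, the lines thus differed in where a peak began and not in whether the 5′ region had a peak. Over all 3252 matched members the first base was A in 43.2%, over the 20 members with a start peak in A549/DDP alone in 40.0%, and over the 29 in A549 alone in 65.5%. The other 16 starts called in both A549/DDP lists alone were those of ANXA1, APLP2, CHCHD10, COX16, COX17, EID2, HNRNPA2B1, MMP7, MRPL47, MRPS15, NBDY, OCIAD1, PSMB4, PTGES3, RHOB and TOMM6. Starts called in both A549 lists alone were that of NDUFB4 and those of ARF3, BIRC2, CDK13, CMAS, ENSA, ERP29, FIZ1, GOLPH3, ID3 and JTB. Also in this group were KAT5, LEMD3, MACROH2A2, MASTL, MGAT2, MIEN1, NEDD8, OTUD5, RAB13 and RBBP6. Its remaining starts were those of RBM12, RPL24, SCNM1, SEPHS2, SMAD6, TRMT61A, VAMP8 and ZBTB11.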

How the data were processed

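For each input library the authors gave a gene table of expected counts, TPM and FPKM. Each m6A-seq library has its peaks, split by exon, with a deposited p-value. The expected counts are estimates that are not normalized, and the authors scaled TPM and FPKM for length and depth. The submitters' processing notes name hg38, STAR, RSEM and bedtools, without roles. A second pair of A549 inputs was not used here. Replicate numbers follow the labels; for the A549 m6A-seq libraries they are exchanged relative to the file names.

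Member genes and gene lists were chosen with earlier results of these data known. Peak lengths were summed per gene and list. Log2(bases + 100) was fitted with limma 3.58.1 with a trend over genes with a peak in at least 1 list. Rounded counts were fitted with edgeR 4.0.16 (filterByExpr, TMM), and both had Benjamini-Hochberg adjustment, in R 4.3.3. Each was also run on simulated data, which for limma had 1 common spread over genes, unlike these sums. DESeq2 1.42.0 was an alternative. Named genes were from the 8 largest separations each way on that scale among members separated by both measures, the 5 members with the most bases, up to 4 separated members per list, genes the study names, and those at the window's edges. Lists were matched by symbol, for 3952 of 3964 members. Transcript starts and gene spans are from RefSeq GRCh38.p14. Motifs and placement in untranslated or coding sequence were planned but not run; the only genome sequence used was that around RefSeq starts. Plots used Python 3.11.15 with pandas 2.3.3 and matplotlib 3.10.9.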

Additional observations from a re-analysis of the deposited data

How the results depend on the processing

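The number of members was 2311 with the narrower window of ratios, and from 2916 to 4683 under the other rules on RNA. Members higher and lower by summed bases numbered 484 and 346 with lists scaled to the same total, 167 and 119 with peaks at a p-value of at most 1e-05, 198 and 190 with lists of equal size, and 180 and 251 with the narrower window of ratios. With at least 20 TPM, 281 were higher and 272 lower, so the balance turned with the lowest TPM. With 1 list left out, the higher count ran from 372 to 1563 and the lower count from 468 to 1273. By number of peaks, members higher and lower numbered 410 and 390 with scaled lists, 163 and 84 at a p-value of at most 1e-05, 198 and 128 with lists of equal size, and 184 and 148 with the narrower window of ratios, and 161 were lower with at least 20 TPM. With 1 list left out these counts ran from 423 to 1413 and from 318 to 850. Leaving out a list could only keep or raise such counts, by bases or by number, since fewer lists then had to separate. The median difference over members ran from -0.02 to 0.07 with 1 list left out; at 0.00 in the other alternatives it does not show stability, since members without a peak lie at 0. Over members with a peak it was also 0.00 at a p-value of at most 1e-05 and with lists of equal size, and it went from -0.10 to 0.21 with scaled lists, -0.43 without A549 replicate 2, -0.66 without A549/DDP replicate 1, 0.12 without A549 replicate 1 and 0.46 without A549/DDP replicate 2. Limma called 0 members under all alternatives with 4 lists, and from 0 to 582 with 1 list left out, the most without A549/DDP replicate 2. With the replicate block of the labels it called 0 members, also with the A549 numbers exchanged, and the median stayed at 0.00. At an unadjusted p under 0.05 limma had 973 genes with that block and 279 with the numbers exchanged. Deviations of same-numbered lists had a correlation of 0.00357 over genes, and of 0.0826 with scaled lists. A correlation over genes cannot see a shift shared by all genes, and in each line the list of replicate 1 was the longer. Whether the numbers pair the lists is thus not settled. Of 288 values of 24 named members, some came to pass the threshold, only with a list left out, and none reversed past it. This does not show stability, since none of these members passed it with the lists as deposited. Members named for the largest separations were at 0 bases in both lists of 1 line, so their sign could not turn. Other differences did change sign, as at PLEC, from -0.36 to 0.12 with scaled lists. At SRP72 the difference went from 3.73 to 0.00 with peaks at a p-value of at most 1e-05. The causes were not tested. With 2 lists a line and unknown depth, absence of a call does not show absence of m6A.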
